A study of Mus musculus with 2 samples.

Results

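The interferon regulatory factors (IRFs) and the signal transducers and activators of transcription (STATs) are the transcription factors through which interferons and many cytokines change gene expression. The genes described here are Irf1, Irf2, Irf3, Irf5, Irf7, Irf8, Irf9, Stat2 and Stat3, 9 of the 20649 genes that could be named on the arrays. They were taken as every probe whose RefSeq transcript belongs to one of these genes, which gave 11 probes in 20 spots per array, and all 9 genes were well above background on both arrays with their brightest probe. The measurements came from monocytic myeloid-derived suppressor cells (M-MDSCs), immature monocytic cells with immunosuppressive activity, isolated from 4T1 tumours. 4T1 is a mammary carcinoma line, and every female BABL/c mouse in either group had been starved for 1 day and then injected subcutaneously with 1000000 of these cells. The normal-salt diet (NSD) group ate chow with 0.4% NaCl and drank tap water, whereas the high-salt diet (HSD) group ate chow with 4% NaCl and drank water with 1% NaCl, each for 16 days. M-MDSCs were obtained with a commercial isolation kit and mixed in equal numbers within a diet before RNA extraction, so each diet is represented by 1 array of pooled cells. The spread between mice is therefore unknown, and the diets were described without any test.

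In type I interferon signalling, the receptor activates the kinases JAK1 and TYK2, and phosphorylated STAT2, with IRF9, becomes part of the complex ISGF3, which binds the interferon-stimulated response element (ISRE) in front of antiviral genes. IFN-γ acts through the gamma-activated sequence (GAS), a binding site of STAT dimers, and IRF1 is among the genes induced there. IRF3 and IRF7 are activated downstream of nucleic acid sensors and switch on the interferon genes themselves, IRF8 directs the development of monocytes and dendritic cells, and STAT3 carries the signals of IL-6, IL-10 and G-CSF, the last of which drives the expansion of myeloid-derived suppressor cells.

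Several of these genes are themselves targets of the pathway, and the sequence in front of their starts shows where its motifs lie. RefSeq promoters of mouse assembly GRCm38.p6 were found for all 9 genes, and the 250 bases before each annotated start were searched on both strands for an ISRE core (GAAANNGAAA) and a GAS core (TTCNNNGAA, which reads the same on both strands). The capitals below mark the matches in the 4 genes that had any, and no match overlapped another. For Irf7, which had the largest difference between the diets and neither motif in this window, the capitals mark a TATA box (TATAAA, searched on the gene's strand after the other motifs).
Irf1, chr11:53769884-53769972, plus strand: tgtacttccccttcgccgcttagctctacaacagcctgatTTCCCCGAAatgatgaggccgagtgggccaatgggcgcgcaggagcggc
Irf2, chr8:46739495-46739569, plus strand: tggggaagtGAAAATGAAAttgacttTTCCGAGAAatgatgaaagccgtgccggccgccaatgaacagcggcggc
Irf8, chr8:120736147-120736253, plus strand: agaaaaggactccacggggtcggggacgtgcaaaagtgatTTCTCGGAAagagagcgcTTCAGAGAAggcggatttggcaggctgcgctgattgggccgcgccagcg
Stat2, chr10:128270248-128270325, plus strand: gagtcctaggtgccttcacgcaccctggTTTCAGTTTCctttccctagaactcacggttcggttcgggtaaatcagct
Irf7, chr7:141266425-141266493, minus strand: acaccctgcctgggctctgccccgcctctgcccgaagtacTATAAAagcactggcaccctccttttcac

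The GAS core of Irf1 lay 90 to 82 bases before the more upstream of its 2 annotated starts, and the ISRE core of Stat2, on the opposite strand, 222 to 213 bases before the start of Stat2. Irf2 held 1 match of each kind and Irf8 held 2 GAS cores. Irf8 also held a TATA box. The first of its GAS cores lay 171 to 163 bases before the more upstream of 2 annotated starts. Of all 32851 promoters of this length, 2.98% held an ISRE core, 7.02% a GAS core and 7.59% a TATA box. The starts of Irf3, Irf5, Irf7, Irf9 and Stat3 had neither an ISRE nor a GAS core in these 250 bases, which says only that these letters are not in this window. A match is a description of the sequence and was not shown to be bound.

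The signal given below is the processed intensity of a probe after background subtraction by the scanner software. Before fold changes were formed, each array was divided by its 75th percentile, 252 (NSD) and 233 (HSD) intensity units. These percentiles differed by −0.11 on the log2 scale (HSD minus NSD), so a fold change differs from the plain quotient of the signals. For small differences this matters. The unscaled log2 quotient was −0.029 for Irf8 and 0.11 for the brighter Stat3 probe, against 0.085 and 0.22 after scaling. Log2 fold changes are differences of the scaled log2 values, positive where HSD was the higher. Their SD was computed from the spread between spots, divided by the square root of the number of spots averaged. That spread came from the spots of the probe itself where it had 5 or more and otherwise from such probes of like signal on each array. The SD covers measurement within an array only. Since labelled RNA binds each probe differently, fold changes were formed between diets for the same probe. The sums of signals over markers of cell types, given further below, add unlike probes and are not amounts of RNA or cells. In pooled cells, fewer cells of a type and less RNA per cell cannot be told apart.

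With HSD, 3 of the 9 genes were lower by at least 1.5-fold, and none was higher by that much. The lower genes were Irf7, Irf9 and Stat2, which encode the IRF that amplifies interferon production and subunits of ISGF3. Among all 16308 genes with a usable fold change, 10.3% were lower and 9.86% higher by this measure. Past 2-fold, Irf7 alone of the 9 was lower with this scaling, against 4.17% of all genes. Of all genes past 1.5-fold, 48.9% were the higher ones with this scaling and 38.5% with cyclic loess. The median log2 fold change was −0.37 over the 9 genes and 0.045 over all genes.

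**Figure D1:**
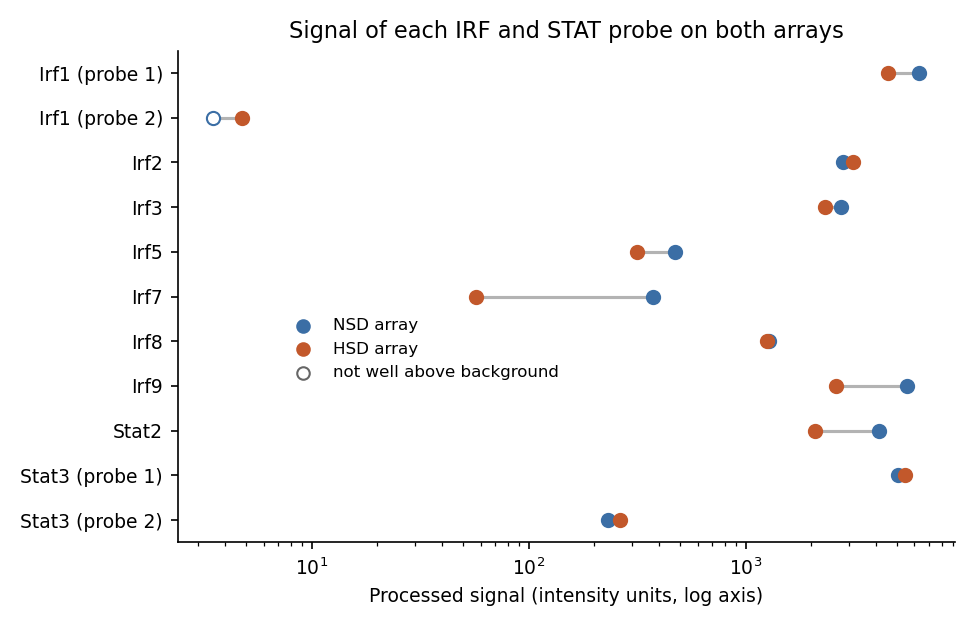
Processed signal in intensity units (log axis) of every probe of the 9 genes, with the NSD array in blue and the HSD array in orange; probe 1 is the brighter probe of a gene with several, and an open circle is a signal not well above background. The orange points of Irf7, Irf9 and Stat2 lie furthest to the left of the blue ones.

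Among the ISGF3 subunits, Stat2 gave signals of 4127 with NSD and 2081 with HSD. The log2 fold change was −0.87 ± 0.086 (SD from spots), which puts the HSD level at 54.6% of the NSD value after scaling. Irf9, which encodes the DNA-binding subunit that recruits the STATs to the ISRE, had signals of 5517 and 2616. Its log2 fold change was −0.96 ± 0.086, or 51.3% of the NSD value. The values of Irf9 and Stat2 differed by 0.089 on the log2 scale, less than the spot SD of that difference, 0.12, so these subunits were lower by amounts that could not be separated.

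Of the IRFs that switch on interferon and cytokine genes, Irf7 gave a signal of 373 with NSD and 57.0 with HSD. Irf7 is itself strongly induced by type I interferon, and its product drives the later wave of IFN-α transcription. The log2 fold change was −2.60 ± 0.11, a 6.05-fold lower value with HSD, and only 70 of the 16308 genes had a lower one. Both signals were above the lowest signals that passed the background filter, 4.61 (NSD) and 4.39 (HSD).

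Irf3, whose product is present before stimulation and starts the first wave of interferon transcription, had signals of 2753 and 2319 and a log2 fold change of −0.13 ± 0.086. Irf5, which acts downstream of Toll-like receptors in the induction of inflammatory cytokines, had signals of 475 and 314. Its log2 fold change was −0.48 ± 0.085, which did not reach 1.5-fold. Irf7 lay 1.64 log2 units below Irf9, the next lower gene, against a spot SD of that difference of 0.14.

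Irf1 and Irf2 bind the same sequences, IRF1 mostly as an activator and IRF2 mostly as a repressor. Irf1 had 2 probes. The brighter gave 6326 with NSD and 4533 with HSD, a log2 fold change of −0.37 ± 0.086. The other probe, which stands for another transcript of the gene, was not well above background with NSD, at 3.51, and passed the filter with HSD, at 4.77, a log2 bound of 0.16 that is smaller than its spot SD of 0.33, so no direction can be read from it. The mean over both probes, with the second at its bound, was −0.10. Irf2 had signals of 2814 and 3133 and a log2 fold change of 0.27 ± 0.086, so that the pair differed in direction, with neither past 1.5-fold.

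Irf8, needed for the monocyte and dendritic cell lineages and known to restrain the formation of granulocytic cells, had nearly the same signal in each group, 1275 with NSD and 1249.8 with HSD. Its log2 fold change of 0.085 was smaller than its spot SD of 0.089.

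Stat3 was the only one of these genes printed in several spots. On the NSD array its brighter probe had a lowest signal of 4862, a median of 5057 and a highest of 5219 over 9 spots, after 1 spot at 4901 had been left out as an outlier flagged by the software. On the HSD array the lowest was 4897, the median 5483 and the highest 5810 over 10 spots. Of the HSD spots, 2 fell within the NSD range and 8 lay above it. The mean was 5057 ± 99.6 (SD, 9 spots) with NSD and 5446 ± 249 (SD, 10 spots) with HSD. At each of the 9 array positions with a usable spot on both arrays the HSD spot was the higher, but spots are repeats of the measurement and not of the mice. The log2 fold change was 0.22 ± 0.023, an SD for means over 9 and 10 spots. The second probe of Stat3 had signals of 232 and 263 and a log2 fold change of 0.30, in the same direction. Neither probe reached 1.5-fold.

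**Figure D2:**
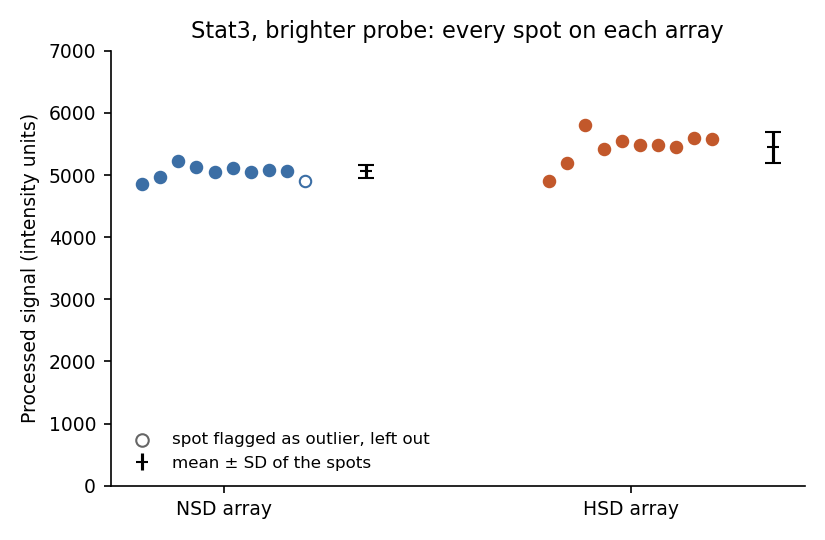
Processed signal in intensity units of each spot of the brighter Stat3 probe, with 10 spots on the NSD array, of which 1 was left out (open circle), and 10 on the HSD array, beside the mean ± SD of the spots used. The HSD spots scatter more widely, with an SD of 249 against 99.6.

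Ordered by log2 fold change, the genes ran from Irf7 through Irf9, Stat2, Irf5, Irf1, Irf3, Irf8 and Stat3 to Irf2. Neighbours in this order differed by less than the spot SD of their difference for Irf9 and Stat2, for Irf5 and Irf1, where the difference was 0.11 with an SD of 0.12, and for Stat3 and Irf2, where it was 0.049 with an SD of 0.089. Stat2 and Irf5, on either side of the 1.5-fold limit, differed by 0.39 with an SD of 0.12. The values just outside and just inside that limit were therefore −0.87 and −0.48.

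**Figure D3:**
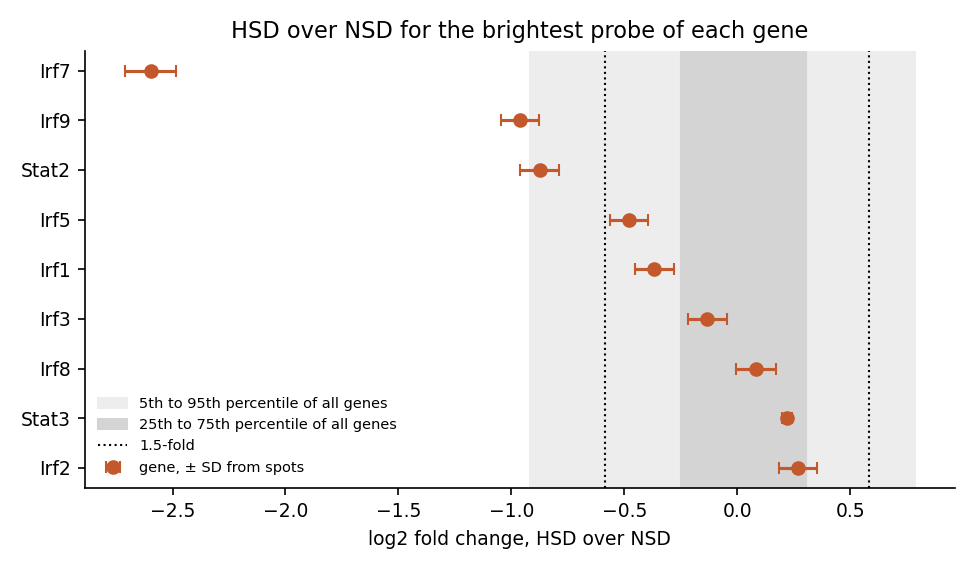
log2 fold change (HSD over NSD) of the brightest probe of each gene, with bars of 1 SD computed from spots of the same probe or of probes of like signal. Dotted lines mark 1.5-fold and the grey bands hold the middle part of all 16308 genes; Irf7 lies outside the band from the 5th to the 95th percentile (−0.92 to 0.79), Irf9 just beyond its lower edge and Stat2 just within it.

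How far a single spot can mislead was read from probes printed several times. Within an array, 6668 pairs of spots sharing a probe were compared at mean signals between those of Irf7 on the 2 arrays. The median difference was 0.068 on the log2 scale, the 95th percentile 0.27 and the largest 0.88. The largest was 3.25 when flagged spots were kept, and the spots of Irf7 carried no flag on either array. At signals like those of Irf9, 1524 pairs had a 95th percentile of 0.21 and a largest difference of 1.84, which exceeds the size of the Irf9 and Stat2 values. Each of these 3 genes had 1 probe in 1 spot per array, with no second probe to compare. The surface around the spots was also measured. Within 10 rows and columns of the Irf7 spot, 282 positions well above background on both arrays had a median log2 fold change of 0.11, and around the Irf9 and Stat2 spots the medians were 0.038 and 0.073.

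The 5 other IRF and STAT genes described here did not share a direction. Irf4, a factor of plasma cells and of alternatively activated macrophages, had signals of 83.1 and 131.5 and a log2 fold change of 0.78, past 1.5-fold. Stat5a, which carries GM-CSF signals, had signals of 722 and 463 and a log2 fold change of −0.53, short of 1.5-fold. Stat5b had 2 probes with log2 fold changes of 0.094 and −0.41, so its probes disagreed. Stat6, the transducer of IL-4, had 3 probes between −0.29 and −0.031. Stat4 had a log2 fold change of 0.29.

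The genes that these factors regulate were then listed from general knowledge, but with earlier results of these data known. Of 28 genes induced through ISGF3, 26 had a probe, and HSD was lower by at least 1.5-fold in all 26. Of all 16308 genes with a usable fold change, 10.3% were lower by that much. The median log2 fold change was −1.84, and the values ran from −4.26 to −0.95. The largest differences were those of Ifi44, with signals of 487 and 23.5 (log2 fold change −4.26), Ifit3, an inhibitor of viral translation, with 5648 and 337 (−3.95), and Oasl2, of the oligoadenylate synthetase family, with 6859.8 and 609 (−3.38). The smallest difference of the list, that of Ddx58, was −0.95, close to the value of Irf9. Every gene of this list had a lower value than Irf5, 16 of the 26 lay between the values of Irf7 and Irf9, and 9 lay below Irf7. An ISRE core stood in the 250 bases before a start in 8 of the 20 listed genes that had a RefSeq promoter, against 3.46% of all 27025 genes with one. The targets of IFN-γ and IRF1 described next held it in 9 of 17 genes with a promoter.

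**Figure D4:**
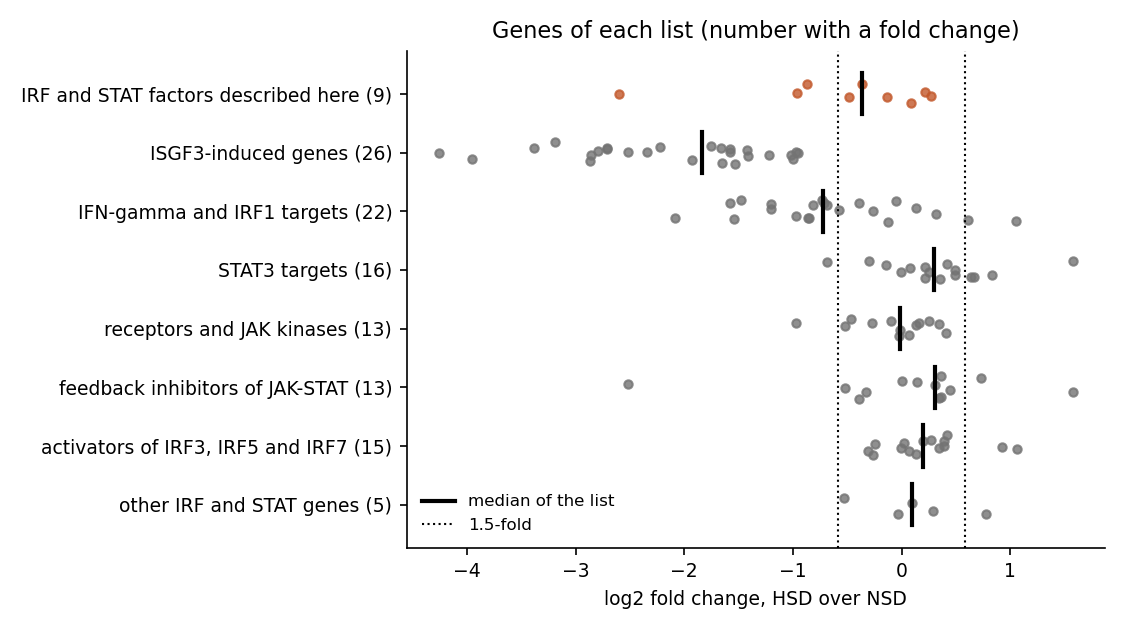
log2 fold change (HSD over NSD) of the genes in each list, 1 point per gene in its brightest probe, with the number of genes with a fold change in parentheses, the median as a black bar and 1.5-fold as dotted lines. The ISGF3-induced genes lie wholly to the left of the lower line, with a median of −1.84, while the STAT3 targets have a median of 0.30.

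Of 22 measured targets of IFN-γ and IRF1, 13 were lower and 2 higher past 1.5-fold, and the median was −0.72. Among all genes, 10.3% were lower and 9.86% higher, shares that stand beside the lists below as well. These counts include 2 genes of low signal, Cxcl9 (6.74 and 13.0, higher) and Ido1 (11.7 and 5.51, lower), with spot SDs of 0.32 and 0.33. Gbp7, a guanylate-binding protein of the defence against intracellular microbes, had signals of 657 and 143 (−2.08), and Igtp and Irgm1, immunity-related GTPases, had −1.58 and −1.55. Of 18 listed STAT3 targets, 16 were usable. Past 1.5-fold, 4 of them were higher and 1 was lower, and the median was 0.30. The higher ones included Il10 and Osmr at low signals, 14.1 and 20.7 for Il10 and 6.73 and 9.71 for Osmr. Their log2 fold changes were 0.67 and 0.64, with spot SDs of 0.081 and 0.33. Socs3, the feedback inhibitor of STAT3 signalling, had signals of 1515 and 4177 (1.58), Vegfa, the endothelial growth factor, 202 and 333 (0.84), and Junb 98.5 and 56.6 (−0.68). Ccnd1 and Timp1 did not pass the background filter.

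Upstream of the factors, 13 genes of receptors and JAK kinases had a median of −0.012, with 1 gene past 1.5-fold. This was Il6st, the signalling subunit of the IL-6 receptor family, with signals of 50.9 and 24.0 (−0.97). Ifngr1 and Ifnar1, chains of the receptors for IFN-γ and type I interferon, had −0.52 and −0.46, short of 1.5-fold. Of 15 usable activators of IRF3, IRF5 and IRF7, 2 were higher and none lower past 1.5-fold, and the median was 0.20. Tlr3 did not pass the background filter on either array. Myd88, the adaptor of most Toll-like receptors, had signals of 2557 and 4937 (1.06), Ikbke, a kinase of IRF3 and IRF7, 263 and 462 (0.93), and Traf6, a ubiquitin ligase of the same pathway, 114 and 141 (0.42). Of 13 feedback inhibitors of JAK-STAT signalling, 2 were higher and 1 lower past 1.5-fold, and the median was 0.31. The lower one was Usp18, an inhibitor at the type I interferon receptor that is itself induced by ISGF3, with signals of 2220.1 and 358 (−2.52), and the higher ones were Socs3 and Pias1 (0.73). Lists share genes, as Usp18 and Socs3 each stand in more than 1.

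Markers of cell types were examined beside these values. Of the monocyte markers, 5 of 6 had a probe and all were well above background on both arrays, with summed signals of 45808 and 43121. Itgam alone made up 31564 and 31043 of these sums. Past 1.5-fold, 1 was higher, Cd14, with a log2 fold change of 0.82. The 2 lower ones were Ccr2 (−0.78) and Fcgr1, also an interferon-induced gene (−3.68). Of the 7 macrophage markers, 5 were at least 1.5-fold lower with HSD, counting 1 lower bound, while Adgre1 had −0.55 and C1qb 0.33. The lower ones included Mrc1, with signals of 134 and 5.49 (−4.50), C1qc (−3.11) and Mertk (−2.52). The summed signals of the 7 were 14188 and 8678, mostly from Adgre1 (6723 and 4252) and Apoe (7119 and 4337, −0.60). The part of these markers in the IRF and STAT values was not tested. The 7 measured neutrophil markers had summed signals of 266919 and 257908, the largest sums of these marker lists. All were well above background on both arrays, with log2 fold changes from −0.071 to 0.51 and none past 1.5-fold. What share of the cells they stand for was not tested. The 7 markers of plasmacytoid dendritic cells, which carry much IRF7 and IRF8, had summed signals of 16751 and 16372 and a median of −0.025. Siglech alone made up 13705 and 13214 of these sums. At least 1.5-fold lower were 2 of the 7, Klk1 (−1.13) and Ccr9 (−0.74), and the highest was Tcf4 (0.56). Conventional dendritic cell markers summed to 852 and 770, of which Ccr7 alone made up 746 and 682. Among the others Clec9a was 1.74-fold higher at low signals, 6.93 and 11.1, with a spot SD of 0.33 on a log2 fold change of 0.80. Cd209a passed the background filter only with NSD, with a log2 bound of −1.58, and Xcr1 did not pass it on either array. B cell markers had a median of 0.40, T and NK cell markers of −0.30 with Ncr1 not well above background, 4T1 carcinoma markers of 0.069 with summed signals of 171 and 155 and 3 of 7 at least 1.5-fold higher, fibroblast markers of −0.55 with Pdgfra not well above background, and endothelial markers of 0.18.

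Under other ways of processing, Irf7, Irf9 and Stat2 kept their side of the 1.5-fold limit, and the remaining 6 stayed within it, under the 9 settings plotted next. Keeping flagged spots and combining probes were no check on Irf7, Irf9 and Stat2, each with 1 probe in 1 unflagged spot per array.

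**Figure D5:**
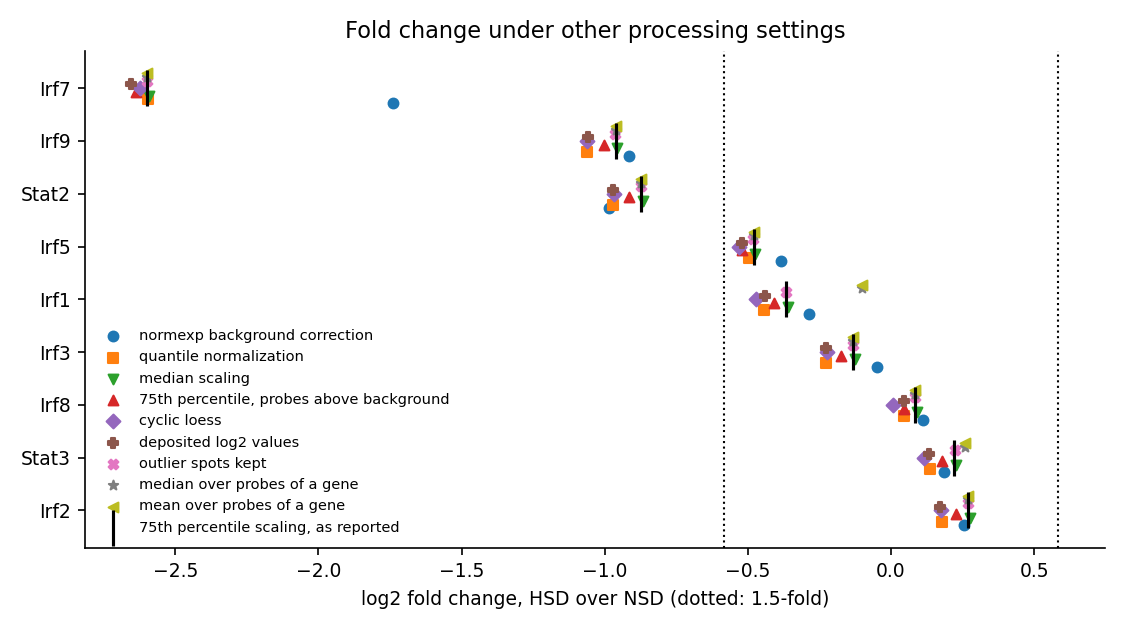
log2 fold change (HSD over NSD) of each gene as reported (black bar) and under 9 other settings (symbols), with 1.5-fold as dotted lines. Irf7 moves from −2.60 to −1.74 with the normexp background correction, the widest shift of any of the 9 genes.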

How the data were processed

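The authors deposited Feature Extraction 11.0.1.1 output for 1 Agilent one-colour array per diet, whose processed signal is an intensity left after background subtraction and spatial detrending, without normalization between arrays. They also deposited log2 values made with GeneSpring, per the study's reporting summary, whose normalization method is not given in the sources used here; these served as an alternative. The probes' sequences were not used here, and the array design was annotated on an older mouse assembly, so genes were named through RefSeq transcripts of GRCm38.p6.

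Control spots and spots flagged as outliers were left out, spots of a probe were averaged on the log2 scale, and each array's 75th percentile was subtracted. Probes not well above background (fewer than 50% of spots) on 1 array gave a lower bound. The brightest probe stood for a gene. Spot SDs came from the 50 probes nearest in signal among 289 printed in 5 or more spots. With 1 array per diet no test was run, and precision is limited by that number. The members and lists were chosen with earlier results of these data known. Named genes were all members and, per list, the 3 largest differences well above background on both arrays, plus markers and other IRF and STAT genes, some of which are not reported here; further genes were named after their values were seen. The step that counts genes past 1.5-fold was tested on simulated data with known differences. Alternatives were normexp correction (offset 50), other scalings, filters and ways of combining probes. Python 3.11.15, numpy 2.4.6, pandas 2.3.3, matplotlib 3.10.9, R 4.3.3 and limma 3.58.1 were used.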

Additional observations from a re-analysis of the deposited data

How the results depend on the processing

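The count of genes at least 1.5-fold lower was 3, and of those at least 1.5-fold higher 0, under each of the 11 other settings of background correction, scaling, filter, flagged spots and probes per gene. Irf7, Irf9 and Stat2 each have 1 probe in 1 unflagged spot per array, well above background on both. The settings of filter, flagged spots and probes per gene were therefore no check on these genes. At a 2-fold threshold 1 gene, Irf7, was lower, against 4.17% of all genes. Irf9 also passed 2-fold under 4 of the 9 settings below, at −1.06 with quantile normalization, cyclic loess and the deposited values and narrowly with the 75th percentile of probes above background. Over the 9 settings that give each gene a value, all 9 genes kept their direction. Irf7 lay between −2.65 and −1.74, the last with normexp, Irf9 between −1.06 and −0.91 and Stat2 between −0.99 and −0.87. Irf8 came as low as 0.0079 with cyclic loess. The list medians kept their sign except those of the receptors and JAK kinases, 0.012 with normexp, and of the other IRF and STAT genes, −0.14 at the lowest. The share of all genes at least 1.5-fold lower was 4.07% with normexp and 12.2% with cyclic loess. No array could be left out, and no paired analysis was possible because each diet has 1 array.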

Other observations

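The ligands and partners of these factors were listed after the values above had been seen. Of 11 genes of interferons and of cytokines that act through STAT3, all had a probe and 8 were well above background with NSD and 7 with HSD. Ifnb1, the gene of IFN-β, gave 6.78 intensity units with NSD, near the lowest signal that passed the background filter, 4.61. It did not pass with HSD, a log2 bound of −0.51 (1.42-fold lower) with a spot SD of 0.33. Ifna4 and Ifnk passed the filter on neither array. Ifna2, with 13.6 and 18.5 intensity units, and Ifng, with 9.52 and 9.44, had log2 fold changes of 0.56 and 0.10, with spot SDs of 0.25 and 0.33. Csf3, which encodes G-CSF, passed the filter only with HSD, at 13.7, a log2 bound of 1.68 (3.21-fold higher) with a spot SD of 0.32. Il10 had signals of 14.1 and 20.7 (0.67) and Il6 20.7 and 25.1 (0.39). Lif passed the filter only with NSD, at 6.33, a log2 bound of −0.41 (1.33-fold lower) with a spot SD of 0.33. Il27 had −0.19 and Osm 0.076.

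Of 12 genes of proteins that bind IRFs or STATs or act with them, all well above background, 5 were at least 1.5-fold lower and 1 was at least 1.5-fold higher. The shares of all genes past this limit were 10.3% lower and 9.86% higher. Batf2, a partner of IRF1, had signals of 79.9 and 23.6 (log2 fold change −1.65). Batf3, a partner of IRF8 in dendritic cells, had 47.9 and 20.4 (−1.12), Irf2bp2, a corepressor of IRF2, 3169.7 and 1364 (−1.10), and Nmi, which binds STATs, 2078 and 1085 (−0.82). Ep300, a histone acetyltransferase recruited by both families, had 1246 and 1882 (0.71). Ifi35, also among the ISGF3-induced genes, had −1.02, and Spi1, which binds DNA together with IRF8, had 0.23.

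The columns of the deposited log2 table have nearly the same distribution. After each was sorted, 99.7% of the 39485 values differed by under 0.001 between the arrays, and the largest difference was 0.052. In that table Irf7 differed by −2.65, Irf9 by −1.06 and Stat2 by −0.97 between the diets.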
